A study of Sorghum bicolor with 24 samples.

Results

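The 9 genes described here set the response to day length or keep daily time in sorghum, a grass in which day length decides when the plant stops growing stem and flowers. They were chosen by identifier, 9 of the 34117 genes in the count table, and the rule for the list uses no measured value. They are the maturity genes PRR37 (Ma1, Sobic.006G057866), Ma2 (Sobic.002G302700), phyB (Ma3, Sobic.001G394400), phyC (Ma5, Sobic.001G087100) and Ghd7 (Ma6, Sobic.006G004400), the photoreceptor gene phyA (Sobic.001G111500), and the clock genes LHY (Sobic.007G047400), TOC1 (Sobic.004G216700) and GI (Sobic.003G040900). The study profiled stems of Sorghum bicolor cv. Wray, a bioenergy cultivar, from 4 plants that were 74 days old and still vegetative. Plants were kept in a greenhouse with a day length of 14 h and ample water. From the newest fully elongated internode, at phytomer 8, laser capture microdissection, which cuts chosen cells from a tissue section, gave phloem, xylem sclerenchyma, vascular parenchyma, epidermis and pith parenchyma, and uncaptured whole stem was taken from those internodes as well. All 6 groups had 4 replicates, shared the cultivar and the growing conditions, and carried no transgene or treatment. The group labelled vascular parenchyma in the sample names is listed as xylem parenchyma in the collection protocol. The time of day of harvest is not stated in the labels, and the genes of this list that belong to the clock are known to change with it.

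In plants, the circadian clock is built from transcription factors that repress each other in turn over the day. LHY, a MYB-type factor, peaks around dawn, and TOC1, a pseudo-response regulator, peaks in the evening, and in Arabidopsis each represses the other. Phytochromes, the photoreceptors of red and far-red light, set this clock, and in sorghum under long days phyB and phyC act through PRR37 and Ghd7, both of which hold back flowering.

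Total counts per library ran from 2769555 to 38880291 over the 20 captured libraries and from 16189208 to 29605470 in whole stem. Epidermis replicates 1 and 2 and phloem replicate 3 stood apart by few detected genes, with 10439 to 11021 genes above 1 CPM, the count of a gene scaled to a common library total, against 13378 to 17125 in the other 17. Results that rest on these 3 libraries are given with and without them. Whole stem libraries held 18421 to 18799 genes above 1 CPM, more than any captured library. The files pair no identifiers with gene names, so the captured tissues could not be checked against their marker genes and no further genes of the day-length pathway are named. Levels below are in CPM. Longer transcripts give more counts, so levels are compared between samples and not between genes.

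Of the 9 genes, 7 had enough counts to be tested across the 5 captured types, and 3 of these differed: GI, LHY and phyA. Their adjusted p-values were 0.0145, 0.0168 and 0.0437 in the quasi-likelihood test of edgeR, adjusted by Benjamini-Hochberg over the whole table. Of all 19502 genes in that test, 16.0% passed the adjusted p threshold of 0.05. In every called pair the lower group was epidermis or pith parenchyma and the higher group was vascular. Ma2, phyB, phyC and TOC1 did not pass, at adjusted p-values of 0.823, 0.547, 0.27 and 0.905. A difference between 2 types was called where it passed that threshold and also reached 1 in absolute log2 fold change, and 6 of the 70 gene and pair combinations were called, against 4.32% over all genes and the 10 pairs. Without epidermis replicate 4 that number was 10, and leaving out any other single library gave 4 to 8.

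**Figure D1:**
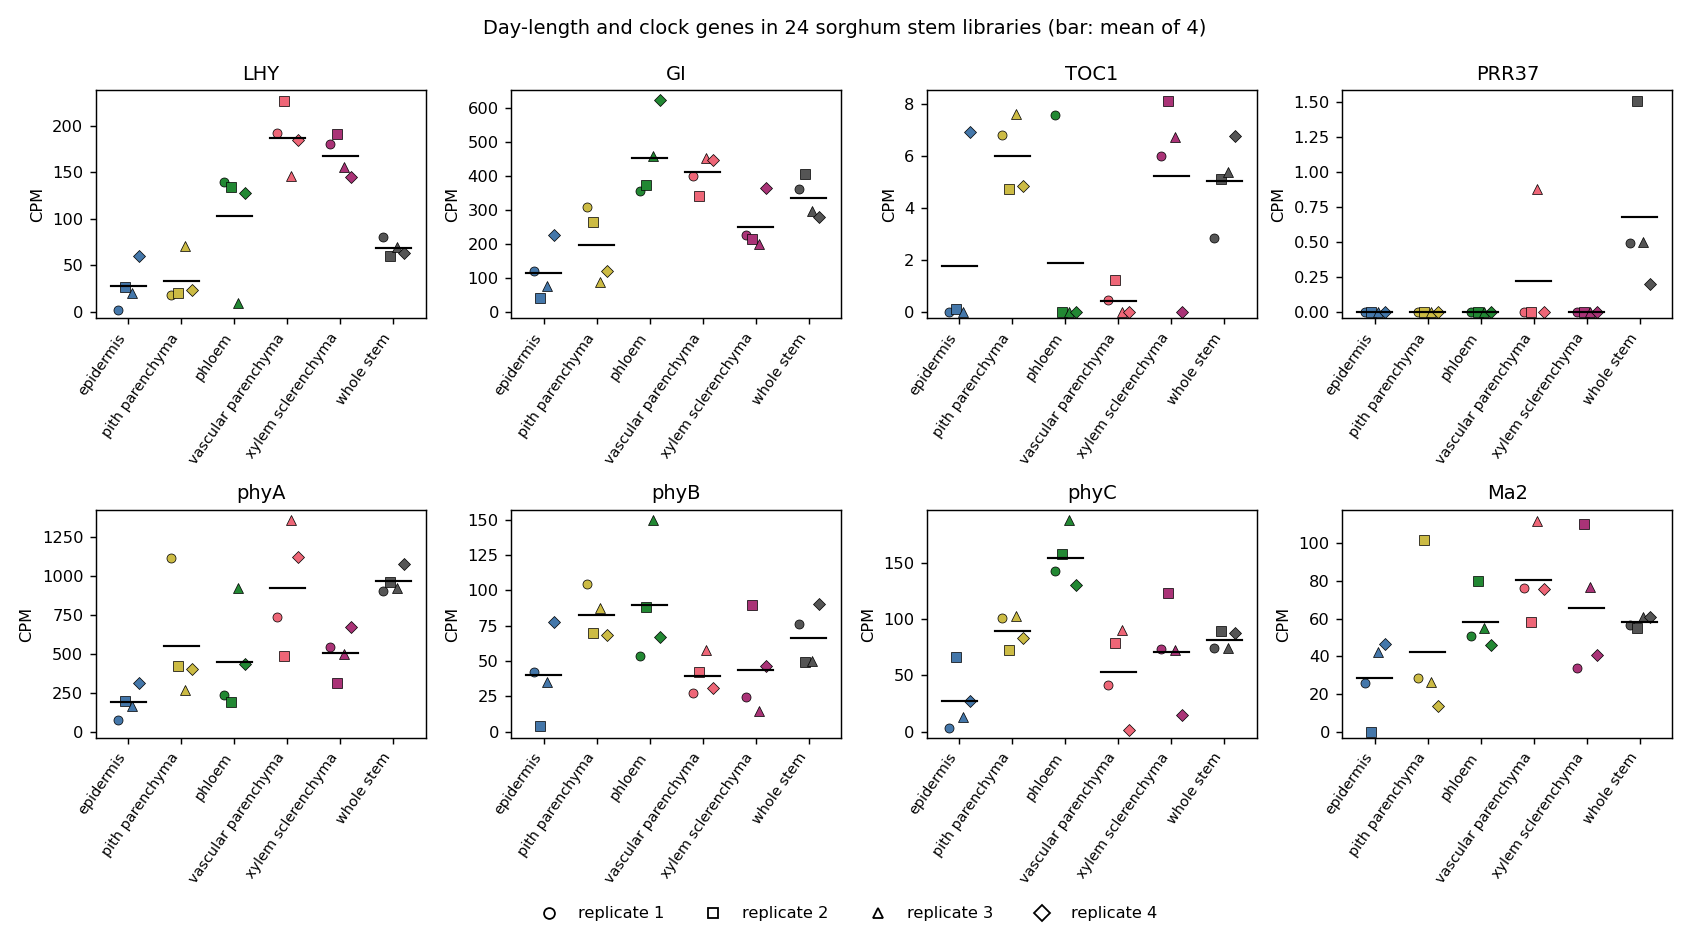
Level of each of 8 genes in CPM (vertical axes, linear, different in each panel) in the 5 captured types and whole stem; each point is a library, its shape the replicate number, and the bar the mean of 4. LHY is at 145 to 227 CPM in all vascular parenchyma and xylem sclerenchyma libraries, and PRR37 is at 0 in 19 of 20 captured libraries; Ghd7, at 0 everywhere, is not drawn.

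LHY, the dawn-phased repressor of the clock, was high in vascular parenchyma and xylem sclerenchyma and low in epidermis and pith parenchyma. Vascular parenchyma replicates 1 to 4 held 192, 227, 146 and 185 CPM and xylem sclerenchyma replicates held 180, 192, 155 and 145 CPM. Epidermis held 2.58, 26.5, 20.6 and 60.4 CPM and pith parenchyma 18.4, 20.6, 70.6 and 24 CPM. All 8 libraries of the former 2 types therefore lay above all 8 of the latter 2. Phloem held 140, 134, 9.10 and 128 CPM, so that replicate 3 alone fell among the low libraries. Whole stem held 81.0, 60.0, 69.7 and 63.8 CPM, below both of the high types and overlapping epidermis and pith parenchyma at their upper end. In a bulk sample, fewer cells that express a gene and less of its RNA per cell cannot be told apart.

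Compared with epidermis, LHY was higher in vascular parenchyma by a log2 fold change of 2.8 (SE 0.74, adjusted p = 0.0186) and in xylem sclerenchyma by 2.58 (SE 0.733, adjusted p = 0.0409). Of all genes, 5.52% and 3.34% were called higher than in epidermis in these types, and 4.21% were called higher in vascular than in pith parenchyma. Compared with pith parenchyma it was higher in vascular parenchyma by 2.63 (SE 0.735, adjusted p = 0.0329), and the 2.41 by which xylem sclerenchyma exceeded pith parenchyma missed the threshold (SE 0.729, adjusted p = 0.0761). The first of these calls was kept in all 20 omissions of a single library, with adjusted p-values of 0.00398 to 0.0483. The call between epidermis and xylem sclerenchyma was lost, at adjusted p-values of 0.0505 to 0.0973, without epidermis replicate 1, 2 or 3, vascular parenchyma replicate 1 or 2, or any xylem sclerenchyma library. That between pith and vascular parenchyma was lost, at 0.0512 to 0.0969, without pith parenchyma replicate 1, 2 or 4 or any vascular parenchyma library. The uncalled difference between pith parenchyma and xylem sclerenchyma passed without epidermis replicate 1 (adjusted p = 0.028), epidermis replicate 4 (0.0469) or phloem replicate 3 (0.0223).

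The 3 LHY calls were kept without the 3 libraries with few detected genes. In that fit the log2 fold changes were 2.22 (adjusted p = 0.0166), 2.0 (0.0417) and 2.63 (0.000589) in the order given, and xylem sclerenchyma exceeded pith parenchyma by 2.42 (adjusted p = 0.00214). Phloem exceeded pith parenchyma by 1.97 there (adjusted p = 0.0097), against 1.59 (adjusted p = 0.199) with all libraries. Phloem exceeded epidermis by 1.76 with all libraries (adjusted p = 0.131), by 2.58 without epidermis replicate 4 (adjusted p = 0.0451) and by 2.25 without phloem replicate 3 (adjusted p = 0.0313).

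LHY was also above the whole stem average in the same vascular tissues. LHY was higher than in whole stem by a log2 fold change of 1.64 in vascular parenchyma (SE 0.177, adjusted p = 0.000941) and by 1.43 in xylem sclerenchyma (SE 0.189, adjusted p = 0.00973), in edgeR's test, where 8.75% and 2.06% of all genes were called higher in these types. All 4 libraries of each type lay above all 4 of whole stem, and both calls were kept in all 8 omissions of a library. In all, 3 of 36 gene and type combinations were called against whole stem, where 12.0% of all gene and type combinations were. The 5 comparisons share the whole stem libraries. Phloem differed from whole stem by 0.63 (adjusted p = 0.648), and by 1.00 without phloem replicate 3 (adjusted p = 0.00411). In that omission the genes called higher in phloem rose from 920 of 19904 to 1778 of 20436. Pith parenchyma lay below whole stem, at -0.97 (adjusted p = 0.353), which passed without pith parenchyma replicate 3, at -1.63 (adjusted p = 0.0149). There the genes called lower in pith parenchyma rose from 821 of 18832 to 1437 of 19587.

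**Figure D2:**
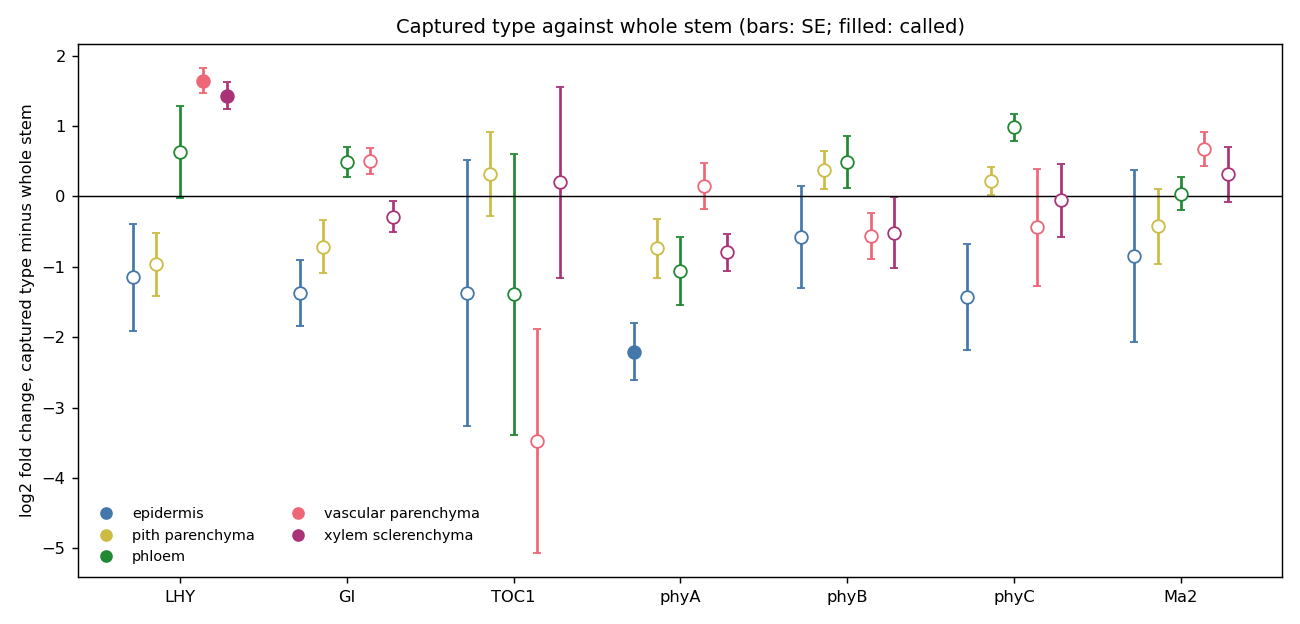
Log2 fold change of 7 genes in each captured type against whole stem (vertical axis), with SE bars from 4 libraries per group; filled points passed the adjusted p and fold thresholds. LHY in vascular parenchyma at 1.64 and in xylem sclerenchyma at 1.43 and phyA in epidermis at -2.21 are filled.

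GI, a large plant-specific protein that in Arabidopsis links the clock to the activation of flowering genes, was low in epidermis and high in phloem and vascular parenchyma. Epidermis replicates 1 to 4 held 121, 42.4, 75.2 and 225 CPM. Phloem held 356, 373, 460 and 624 CPM and vascular parenchyma 401, 342, 454 and 447 CPM. No epidermis library reached the lowest library of either type. Pith parenchyma, at 309, 265, 88.4 and 121 CPM, and xylem sclerenchyma, at 225, 215, 200 and 364 CPM, spread between them, and whole stem held 363, 405, 297 and 279 CPM. GI exceeded its epidermis level by a log2 fold change of 1.86 in phloem (SE 0.441, adjusted p = 0.0114) and of 1.88 in vascular parenchyma (SE 0.442, adjusted p = 0.0089), and both calls were kept in all 20 omissions. Of all genes, 4.39% were called higher in phloem than in epidermis.

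The GI calls rested in part on the libraries with few detected genes. Without those 3 libraries the differences from epidermis were 1.42 in phloem (adjusted p = 0.146) and 1.47 in vascular parenchyma (adjusted p = 0.0875), and GI no longer passed across the 5 types (adjusted p = 0.0627). Epidermis replicate 4 held the most GI of the 4 epidermis libraries. Without it GI in xylem sclerenchyma also exceeded epidermis, by 1.73 (adjusted p = 0.0266, against 0.147 with it), vascular parenchyma exceeded pith parenchyma by 1.36 (adjusted p = 0.0436, against 0.0885), and epidermis lay below whole stem, at -1.93 (adjusted p = 0.0105, against 0.106). Genes of the whole table called lower in epidermis than in whole stem rose there too, from 1811 of 19845 to 3078 of 20269.

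**Figure D3:**
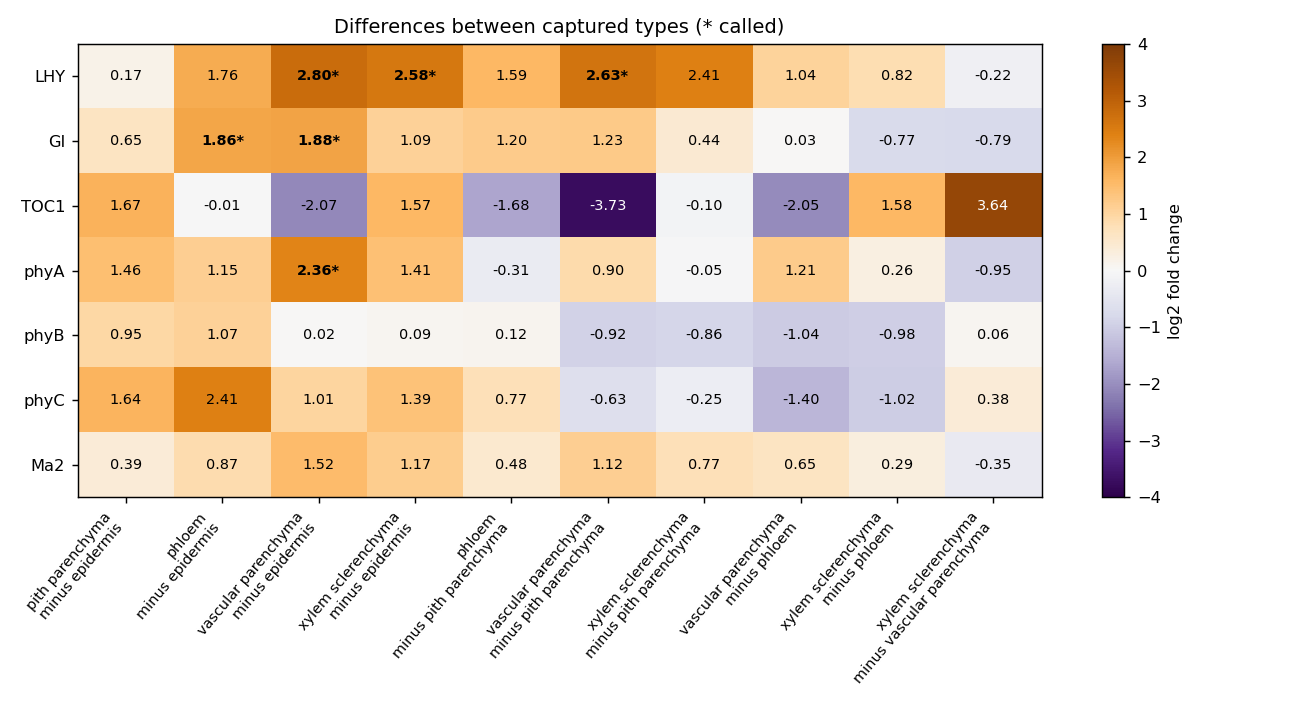
Log2 fold changes of 7 genes (rows) for the 10 pairs of captured types (columns, second-named type subtracted); colour gives the size and sign, and an asterisk marks a pair past both thresholds. The 6 marked cells are LHY (3), GI (2) and phyA (1), all with epidermis or pith parenchyma as the lower type.

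TOC1, the evening-phased repressor, did not follow LHY or GI, and its counts were too few and too scattered for a call. Its counts over all libraries came to 823 in captured types and 524 in whole stem, and 8 of the 20 captured libraries held none. Pith parenchyma was the captured type with TOC1 in all 4 libraries at like levels, at 6.83, 4.73, 7.64 and 4.87 CPM. Xylem sclerenchyma held 6.02, 8.12, 6.75 and 0 CPM, and whole stem 2.84, 5.13, 5.38 and 6.79 CPM. Vascular parenchyma held 0.455, 1.23, 0 and 0 CPM, below every pith parenchyma and whole stem library. Epidermis and phloem had TOC1 mainly in 1 library each, at 6.92 CPM in epidermis replicate 4 and 7.58 CPM in phloem replicate 1, and at most 0.0951 CPM in their other libraries.

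By total counts alone, some libraries without TOC1 were deep enough to hold it at the pith parenchyma level. A count of 3 corresponded to 0.112 CPM in vascular parenchyma replicate 4 and 0.109 CPM in xylem sclerenchyma replicate 4, libraries that held no TOC1 count. They had 13378 and 14072 genes above 1 CPM, the fewest of the 17 captured libraries not set apart above. Total counts therefore do not show that TOC1 could be seen in them, and why it was absent was not tested. The difference between vascular parenchyma and whole stem, a log2 fold change of -3.47 (SE 1.59), had an adjusted p of 0.176 in edgeR's test. DESeq2 gave -3.56 (adjusted p = 0.0467) and limma voom with quality weights -4.0 (adjusted p = 0.027). Phloem and epidermis did not pass against whole stem in edgeR (adjusted p = 0.763 and 0.793). They passed without phloem replicate 1 or epidermis replicate 4 (adjusted p = 0.00723 and 0.0118). Those libraries held 21 and 231 TOC1 counts, and the others of their type at most 1. The passes thus depend on which library was left out and cannot decide whether TOC1 differed. Genes of the whole table called lower rose as well. They went from 1742 of 19904 to 2703 of 20523 in phloem and from 1811 of 19845 to 3078 of 20269 in epidermis.

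The balance of LHY to GI within a library, which library scaling does not affect, leaned furthest to LHY in xylem sclerenchyma. As the log2 of LHY over GI counts with 0.5 added to each, it was -0.55 ± 0.529 in xylem sclerenchyma and -1.14 ± 0.435 in vascular parenchyma, and -2.28 ± 0.316 in whole stem (SD, n = 4 each). All 8 libraries of these 2 types, at -1.63 to -0.17, lay above the 4 of whole stem, at -2.76 to -2.09. Phloem replicates held -1.35, -1.48, -5.66 and -2.29. Epidermis ran from -5.53 to -0.68 and pith parenchyma from -4.07 to -0.32. These ratios are given as a description and were not tested.

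**Figure D4:**
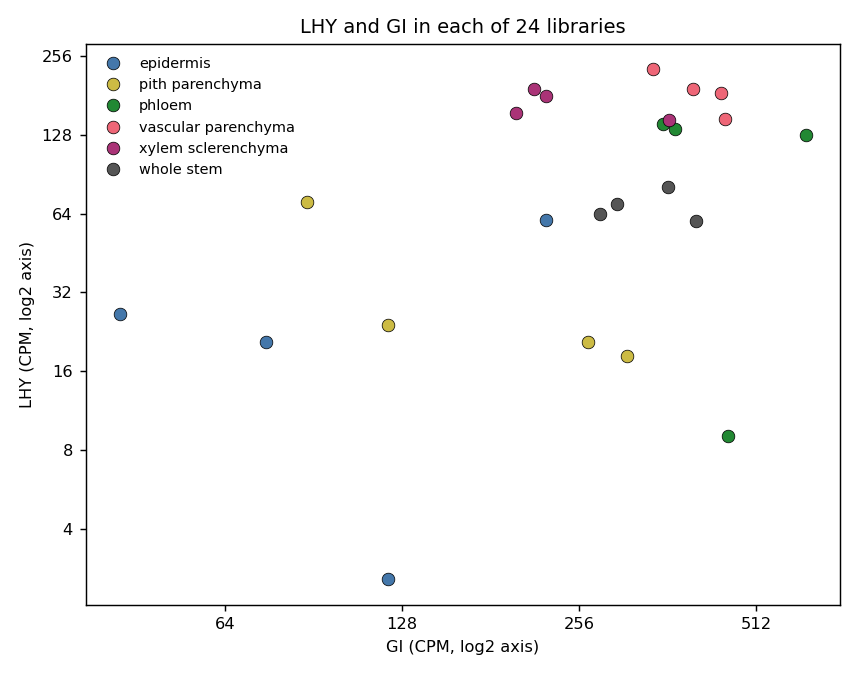
LHY (vertical) against GI (horizontal), both in CPM on log2 axes, one point for each of the 24 libraries, coloured by tissue. Xylem sclerenchyma and vascular parenchyma lie at the top, at 145 to 227 CPM of LHY, and phloem replicate 3 holds 460 CPM of GI with 9.10 CPM of LHY.

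phyA, the photoreceptor of far-red light in seedlings emerging from soil and in shade, had its lowest mean level in epidermis. Epidermis replicates 1 to 4 held 73.1, 198, 167 and 309 CPM. Vascular parenchyma held 732, 487, 1356 and 1118 CPM and whole stem 899, 961, 920 and 1073 CPM, so neither overlapped epidermis. Pith parenchyma held 1111, 423, 268 and 402 CPM, phloem 235, 188, 919 and 431 CPM and xylem sclerenchyma 540, 312, 498 and 669 CPM. Vascular parenchyma exceeded epidermis by a log2 fold change of 2.36 (SE 0.554, adjusted p = 0.0089 in edgeR's test), a call kept in all 20 omissions. Epidermis lay below whole stem, at -2.21 (SE 0.404, adjusted p = 0.00702), a call kept in all 8 omissions, and 9.13% of all genes were called lower in epidermis there. The median log2 difference of all genes in that last comparison was -0.315.

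The phyA difference across the 5 types stood close to the threshold. Its adjusted p of 0.0437 moved to 0.05 to 0.111 in 11 of the 20 omissions, which were epidermis replicate 1, 2 or 3, phloem replicate 1 or 4, pith parenchyma replicate 4, vascular parenchyma replicate 1, 3 or 4, and xylem sclerenchyma replicate 1 or 3. Without the 3 libraries with few detected genes it was 0.0427, the difference between vascular parenchyma and epidermis was 1.97 (adjusted p = 0.0522) and that of epidermis from whole stem was -1.83 (adjusted p = 0.00565). Phloem and pith parenchyma each passed below whole stem when their highest library was left out, at -1.73 without phloem replicate 3 (adjusted p = 0.00555, against 0.211) and at -1.29 without pith parenchyma replicate 1 (adjusted p = 0.0177, against 0.467). Over all genes, those called below whole stem rose as well in these omissions. They went from 1742 of 19904 to 3232 of 20436 in phloem and from 821 of 18832 to 1442 of 19532 in pith parenchyma.

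The reads of phyA were divided with another gene. Its count was not a whole number in any of the 24 libraries, and the counts of phyA and Sobic.001G111366 summed to a whole number within 0.0025 in all 24. No other gene of 34116 did so in more than 2 libraries. The files do not name Sobic.001G111366. It took 9.36% ± 1.4 of the summed counts in whole stem, 31.1% ± 17.2 in epidermis and 15.4% ± 4.71 in vascular parenchyma (SD, n = 4 each). In epidermis its share ran from 14.1% in replicate 4 to 53.6% in replicate 1. With both genes added together, a setting chosen after the data were seen, vascular parenchyma still exceeded epidermis, by 2.13 (SE 0.486, adjusted p = 0.0074), and epidermis lay below whole stem, at -1.89 (SE 0.285, adjusted p = 0.00604).

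**Figure D5:**
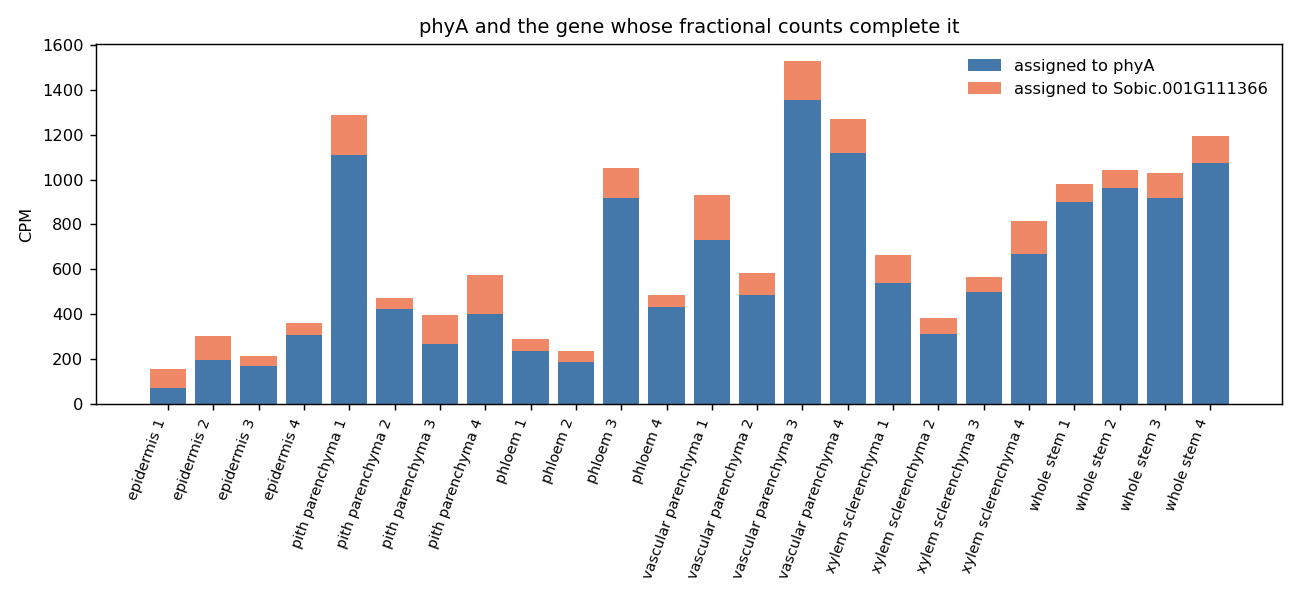
CPM assigned to phyA (lower, blue) and to Sobic.001G111366 (upper, orange), the gene whose fractional counts complete those of phyA, stacked for each of the 24 libraries. The upper part reaches 53.6% of the summed height in epidermis replicate 1 and at most 10.8% in whole stem.

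phyC, the phytochrome at the Ma5 locus, was high in phloem, where replicates 1 to 4 held 142, 158, 187 and 130 CPM. The lowest of these lay above the highest of all 20 other libraries, 123 CPM in xylem sclerenchyma replicate 2. Pith parenchyma held 100.5, 72.5, 103 and 83.0 CPM and whole stem 74.6, 88.9, 74.4 and 87.5 CPM, both with a narrow spread. In epidermis, vascular parenchyma and xylem sclerenchyma single libraries were far down, at 3.50 CPM in epidermis replicate 1, 1.75 CPM in vascular parenchyma replicate 4 and 15.1 CPM in xylem sclerenchyma replicate 4. Phloem exceeded whole stem by a log2 fold change of 0.98 (SE 0.19), with an adjusted p of 0.00913 and a size just under the threshold of 1, which it passed without phloem replicate 4 (1.06), whole stem replicate 2 (1.00) or whole stem replicate 4 (1.04).

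Between captured types no phyC pair was called by edgeR. The difference between phloem and epidermis, 2.41 (SE 0.841), had an adjusted p of 0.0777, and 0.0186 in DESeq2 and 0.0246 in limma voom with quality weights. It passed in edgeR without epidermis replicate 2, at 3.26 (adjusted p = 0.0368), and without vascular parenchyma replicate 4 (adjusted p = 0.0283). Without the 3 libraries with few detected genes, phyC in epidermis lay below whole stem, at -1.83 (adjusted p = 0.00719, against 0.342 with them). Of all genes, 4044 of 21381 were called lower in epidermis in that fit, against 1811 of 19845 with them.

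phyB, the main red-light photoreceptor of light-grown plants and the Ma3 locus, passed no comparison. Its means were 89.8 ± 42.4 CPM in phloem, 82.4 ± 17.1 in pith parenchyma, 66.5 ± 20.2 in whole stem, 43.9 ± 33.4 in xylem sclerenchyma, 39.8 ± 30.3 in epidermis and 39.4 ± 13.8 in vascular parenchyma (SD, n = 4 each). Each step in that order was smaller than the larger SD of its neighbours. The smallest adjusted p was 0.364 over the 10 pairs and 0.291 over the 5 comparisons with whole stem. The log2 ratio of phyC to phyB counts is compared between samples only, since longer transcripts give more counts. It was -0.06 to 0.28 in pith parenchyma, 0.32 to 1.40 in phloem and -0.04 to 0.86 in whole stem. Xylem sclerenchyma replicates 1 to 4 held 1.57, 0.45, 2.32 and -1.63, and vascular parenchyma 0.60, 0.91, 0.64 and -4.11. The ratio ran from -3.58 to 4.0 in epidermis, where replicate 2 held 66.2 CPM of phyC and 4.09 CPM of phyB.

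Ma2, a maturity locus for which sorghum work names a lysine methyltransferase that promotes PRR37 expression, passed no comparison with all libraries in the fit. Its means ran from 80.5 ± 22.7 CPM in vascular parenchyma through 65.4 ± 35.3 in xylem sclerenchyma, 58.3 ± 3.08 in whole stem, 58.0 ± 15.2 in phloem and 42.5 ± 40.0 in pith parenchyma to 28.7 ± 21.1 in epidermis (SD, n = 4 each), again with each step under the larger SD. Epidermis replicate 2 held no Ma2 count among 10516417, while the other 3 held 26.0, 42.4 and 46.3 CPM. Pith parenchyma replicate 2, at 102 CPM, stood above 13.3, 26.5 and 28.4 CPM in the other 3. Without that library pith parenchyma lay below whole stem, at -1.28 (adjusted p = 0.0235, against 0.807 with it). Of all genes, 1980 of 19577 were called lower in pith parenchyma in that fit, against 821 of 18832 with all libraries.

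PRR37, the long-day repressor of flowering at Ma1, was found in whole stem and in 1 captured library. Whole stem replicates held 8, 37, 14 and 6 counts, which is 0.494, 1.51, 0.499 and 0.203 CPM. Vascular parenchyma replicate 3 held 20 counts, or 0.878 CPM, and the other 19 captured libraries held 0. All whole stem libraries thus lay above all libraries of epidermis, pith parenchyma, phloem and xylem sclerenchyma.

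The size of the PRR37 difference was limited by depth. Taking 3 counts per library as the least that could be seen, averaged over the 4 libraries of a type, the whole stem mean of 0.676 CPM was at least 3.56-fold higher than in epidermis, 2.44-fold than in pith parenchyma, 2.32-fold than in xylem sclerenchyma and 1.28-fold than in phloem. These bounds lean on whole stem replicate 2. Without it the whole stem mean was 0.399 CPM, the bounds were 2.1 for epidermis, 1.44 for pith parenchyma and 1.37 for xylem sclerenchyma, and the ratio to the phloem floor was 0.755, which gives no bound. In edgeR's test with all libraries, PRR37 passed the low-count filter only against vascular parenchyma (adjusted p = 0.639). In epidermis, phloem and xylem sclerenchyma it passed the filter and was called below whole stem when any library of the type was left out. The same held without whole stem replicate 4, and these adjusted p-values were 0.0186 to 0.0491. In vascular parenchyma it was called without replicate 3 (adjusted p = 0.0189), the only library there with counts. Without epidermis replicate 1, 2550 of 20640 genes were called lower in epidermis. With no filter and all libraries, PRR37 was called lower than whole stem in epidermis (adjusted p = 0.0217), phloem (0.0364) and xylem sclerenchyma (0.0373). So were 3012 of 28956, 2458 of 28730 and 2176 of 28709 genes of the whole table in these fits. The log2 fold changes of PRR37 were -6.92, -6.77 and -6.74 in the same order, in types that held 0 counts of it. The median log2 difference of all genes from whole stem was -0.79, -0.646 and -0.447. A call below whole stem was thus shared with many genes, and what lowered PRR37 was not tested. With reads not traced to single molecules, these floors cover counting error only.

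Ghd7, the second long-day repressor of this set, held 0 counts in all 24 libraries. At 3 counts per library this allows a level of up to 0.129 CPM in whole stem, 0.167 in vascular parenchyma, 0.19 in epidermis, 0.277 in pith parenchyma, 0.291 in xylem sclerenchyma and 0.528 in phloem.

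The spread between libraries of a group depended on the gene and the tissue. Between whole stem libraries the highest level was 1.11 times the lowest for Ma2, 1.19 for phyA, 1.2 for phyC, 1.35 for LHY, 1.45 for GI, 1.84 for phyB, 2.39 for TOC1 and 7.44 for PRR37. Some captured types were as narrow, with ratios of 1.32 for LHY in xylem sclerenchyma, 1.33 for GI in vascular parenchyma and 1.53 for phyB in pith parenchyma. Others were wide, with 23.4 for LHY, 19.0 for phyB and 18.9 for phyC in epidermis, 15.4 for LHY in phloem and 51.4 for phyC in vascular parenchyma. A pair of types that was not called is not shown to be alike.

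Between the 7 genes with enough counts, levels over the 24 libraries were related loosely. On log2 CPM, the highest Pearson correlations were 0.69 between Ma2 and GI, 0.64 between Ma2 and phyB and 0.62 between phyA and GI. The corresponding Spearman values were 0.47, 0.06 and 0.56. LHY and TOC1 had a Pearson correlation of 0.15 and a Spearman correlation of 0.12, and TOC1 and GI -0.11 and -0.37. Libraries share tissues, plants and depth, so these values are a description. Among 20591 other genes, those with levels most like phyA were Sobic.001G338600 (Pearson 0.87, Spearman 0.79) and Sobic.008G173900 (0.84 and 0.87), and those most like GI were Sobic.009G099200 (0.89 and 0.86) and Sobic.009G156600 (0.89 and 0.79), which the files do not name.

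Depth differed between replicates 1 and 2 and replicates 3 and 4 in several types, so each called difference was refitted within each pair of replicates. All 9 kept their direction in both. In each of the 9, the libraries of the compared groups did not overlap in CPM, so a split could hardly reverse the direction. The kept direction is therefore no separate check on depth. LHY in vascular parenchyma exceeded epidermis by 3.94 within replicates 1 and 2 and by 2.14 within 3 and 4, and exceeded pith parenchyma by 3.63 and 2.10. In xylem sclerenchyma it exceeded epidermis by 3.64 and 2.02. Against whole stem LHY was at 1.78 and 1.46 in vascular parenchyma and at 1.55 and 1.31 in xylem sclerenchyma. GI exceeded epidermis by 2.15 and 1.75 in phloem and by 2.31 and 1.69 in vascular parenchyma. phyA exceeded epidermis by 2.29 and 2.48 in vascular parenchyma, and in epidermis was at -2.66 and -1.94 against whole stem. With 2 libraries per group, 1 of these 18 values passed, that of GI between vascular parenchyma and epidermis within replicates 1 and 2 (adjusted p = 0.0454). Within replicates 3 and 4, 0 of all genes were called against whole stem in vascular parenchyma, xylem sclerenchyma or epidermis. Other fits did call genes. Within replicates 1 and 2, 5314 of 19053 genes were called between epidermis and whole stem, and phyA was not among them. Between epidermis and vascular parenchyma, 1042 of 19634 were called within replicates 1 and 2 and 310 of 20450 within 3 and 4.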

How the data were processed

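RNA from 5 laser-captured stem tissues and whole stem was sequenced in 24 libraries as single-end reads of 150 bp after cDNA amplification, and no molecular identifiers are named, per the labels' protocols. The deposited values are estimated counts per gene (expected counts), made by the authors with Salmon, per the submitters' processing notes, which also name FastQC and alevin. The sources used here name no version, index, genome build or annotation. Of the values, 10.5% were not whole, and counts were rounded before testing. The name table matched 0 identifiers.

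The rule lists the 9 genes by identifier, but the list and the tests were drawn up with earlier results of these data known. All 9 are named. The genes most like phyA and GI, the 2 with the highest mean CPM, are those with the highest Pearson correlation. CPM is the deposited count over the library total. Tests used R 4.3.3 with edgeR 4.0.16 (filterByExpr, TMM, robust quasi-likelihood F tests, Benjamini-Hochberg over all genes of a contrast), with 1 fit over the 20 captured libraries and 1 fit of 8 libraries for each type with whole stem. The SE is the log2 fold change over the square root of F. The script was tested on simulated data. Alternatives were RLE size factors, no low-count filter, DESeq2 1.42.0, limma 3.58.1, a replicate block, and omissions of libraries. The labels describe 4 replicates from 4 plants without saying that numbers mark plants.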

Additional observations from a re-analysis of the deposited data

Results flagged for a closer look

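In groups of 4, a library was singled out when its gap to the nearest other library exceeded Dixon's critical share of the group's range. This held in 6 of the 44 groups with any spread. The critical share gives about 1 in 20 by chance for normally distributed values. CPM with libraries at 0 are not of that kind, so no excess over chance is read from this count.

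PRR37 was at 0.878 CPM in vascular parenchyma replicate 3, from 20 counts, with the other 3 libraries at 0. LHY was at 9.10 CPM in phloem replicate 3, one of the 3 libraries with few detected genes, against 128 to 140 CPM in the others. LHY was at 70.6 CPM in pith parenchyma replicate 3, against 18.4 to 24 CPM. TOC1 was at 6.92 CPM in epidermis replicate 4, from 231 counts, against at most 0.0951 CPM. TOC1 was at 7.58 CPM in phloem replicate 1, from 21 counts in the shallowest library, with the others at 0. GI was at 364 CPM in xylem sclerenchyma replicate 4, against 200 to 225 CPM. The causes were not tested.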

How the results depend on the processing

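No called difference changed direction under any alternative. Since the libraries of the compared groups did not overlap in CPM in any called pair, leaving out libraries could hardly have reversed one. The number of genes differing across the 5 captured types, 3, became 0 within replicates 1 and 2 and 0 within replicates 3 and 4, and was 2 to 3 over the omissions of 1 library. The 6 calls between pairs of types became 11 with DESeq2 and 12 with limma voom with quality weights. They became 1 within replicates 1 and 2, 0 within replicates 3 and 4, and 4 to 10 over the omissions. With DESeq2 and with limma voom, calls over all genes rose in each of the 10 pairs. Between epidermis and vascular parenchyma they went from 1980 of 19502 to 3770 and 3712. The 3 calls against whole stem became 6 with no low-count filter, 5 with DESeq2 and 7 with limma voom. They became 0 within replicates 3 and 4, 8 without the 3 libraries with few detected genes, and 3 to 7 over the omissions. Within replicates 1 and 2 all 3 were lost. Called there instead were TOC1 in epidermis, at -6.03 (adjusted p = 0.0457), and phyA in phloem, at -2.05 (adjusted p = 0.0295). With DESeq2 and with limma voom, calls over all genes against whole stem rose in each of the 5 types. Without the 3 libraries they rose from 2493 of 19845 to 6200 of 21381 for epidermis and from 2662 of 19904 to 5010 of 20436 for phloem. Within replicates 3 and 4, 0 of all genes were called against whole stem in each of the 5 types. Within replicates 1 and 2, calls over all genes moved both ways. For phloem against whole stem they fell from 2662 of 19904 to 1022 of 18903. For epidermis against whole stem they rose from 2493 of 19845 to 5314 of 19053. The causes were not tested. With RLE size factors the median over all genes of epidermis minus phloem went from -0.0956 to -0.244 (log2) and left the calls of all genes described here as they were.

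Replicate numbers paired the samples weakly, if at all, by their values. Same-numbered libraries of different groups had a mean correlation of 0.0165 in their deviations from group means, over 0.1 in 7 of 60 pairs. Libraries with different numbers had a mean of -0.00529, over 0.1 in 10 of 180 pairs. With the replicate number as a block, LHY lost its calls between epidermis and xylem sclerenchyma (adjusted p = 0.0585), between pith and vascular parenchyma (0.058) and between xylem sclerenchyma and whole stem (0.0634), and phyA across the types (0.0512). The block gave 2 genes across the types, 4 calls between pairs and 2 against whole stem. Depth limits what can be said of PRR37 and Ghd7, and few and scattered counts limit what can be said of TOC1.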
